A study of Rattus norvegicus with 6 samples.

Results

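The annexins are a family of proteins that bind acidic phospholipids of membranes when calcium is present, and their genes were followed here in fibrotic and control rat liver. The 9 genes described were those whose symbol in the expression table was Anxa1, Anxa2, Anxa3, Anxa4, Anxa5, Anxa6, Anxa7, Anxa8 or Anxa11, each of which had 1 row among the 19616 genes listed. Annexins share a core of repeats that docks on phosphatidylserine and related lipids, and differ in the tail before the core, through which several of them hold partner proteins such as those of the S100 family. They take part in membrane traffic, in the repair of torn membranes, in the activation of plasminogen at cell surfaces and in the damping of inflammation. In the liver they are known from bile duct cells, macrophages, endothelium and stellate cells, and Anxa6 also from hepatocytes.

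Whole liver tissue of male Sprague-Dawley rats was sequenced after removal of ribosomal RNA, with 1 library for each of 6 rats. The FL group (rats FL2, FL5 and FL12) had received carbon tetrachloride (CCl4), a solvent that injures hepatocytes, mixed with olive oil and injected into the peritoneum in 2 injections a week over 5 weeks, each of 2 mL/kg. The CL group (rats CL5, CL6 and CL7) had received olive oil alone in the same volume. The age of the rats is not given in the sources used here. Albumin, the marker of hepatocytes with the highest level, read 31431 to 33392 FPKM in the CL rats and 24149 to 25209 FPKM in the FL rats, without overlap. FPKM are fragments corrected for transcript length and for the mapped fragments of each library, so that levels can be set beside each other between genes.

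Groups were compared by limma on log2(FPKM + 0.1), with p-values adjusted over the 14864 genes whose FPKM averaged 0.1 or more over all 6 rats. A gene was counted as higher or lower in the FL group when its adjusted p was under 0.05 and its fold change at least 2. Fold changes are on the log2(FPKM + 0.1) scale, which understates changes at low FPKM. The whole distribution was shifted, since the median log2 fold change of all genes tested was 0.29, and it became 0.08 with median scaling of the rats and -0.04 with quantile normalization. Within the FL group, FL2 stood apart from FL5 and FL12 in the markers of stellate cells and myofibroblasts, whose summed level was 195 FPKM in FL2, 535 FPKM in FL5 and 485 FPKM in FL12, and the CL rats lay between 79.6 and 86.7 FPKM.

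All 9 annexin genes passed the filter on low values, and 4 of them, Anxa1, Anxa2, Anxa5 and Anxa7, were higher in the FL group (44.4%, where 9.29% of all genes tested were called higher). By limma 0 annexins were lower, where 0.935% of all genes were called lower. At an unadjusted p under 0.05, 0 annexins were lower as well, where 4.04% of all genes were. A further 3, Anxa4, Anxa6 and Anxa11, had an adjusted p under 0.05 with less than a 2-fold change, so that 7 of 9 passed without a limit on the fold change, where 16.9% of all genes were higher by that rule. In the same 7 genes every FL rat lay above every CL rat, as it did in 35.7% of all genes tested. The median log2 fold change of the 9 genes was 0.92, beside 0.29 for all genes. In bulk tissue, fewer cells of a type and less RNA per cell cannot be told apart, nor can more cells and more RNA per cell, and this holds for every level given here. The count of 4 moved with the processing, as it was 1 (Anxa2) with median scaling, 1 (Anxa2) with quantile normalization, 2 with limma without trend, 2 with a pseudocount of 1 and 3 with no filter on low values. It was 2 without CL5 or CL7, 1 without CL6, FL5 or FL12, and 5 without FL2. The 7 that passed without a limit on the fold change became 2 with median scaling, 2 with quantile normalization and 3 with limma without trend. Without 1 rat that count was 1 (CL6 or FL5), 2 (CL7), 3 (CL5), 4 (FL12) or 7 (FL2).

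**Figure D1:**
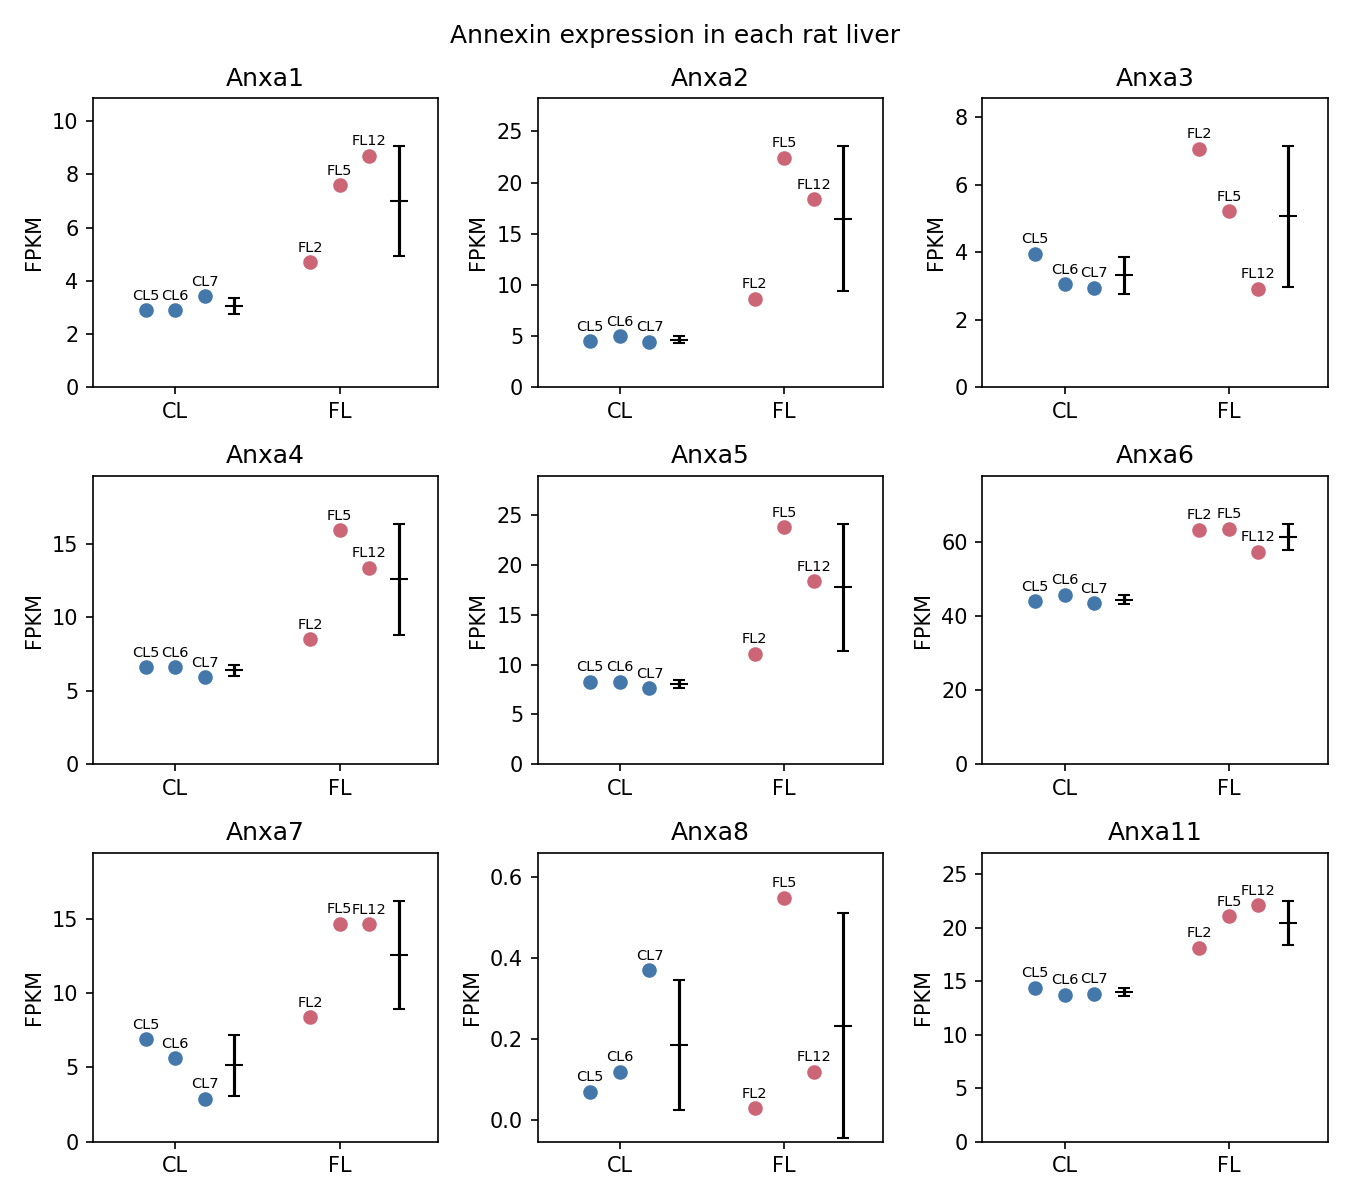
Expression of the 9 annexin genes in FPKM (vertical axis, a separate linear scale for each gene) in the 3 CL rats (blue points) and the 3 FL rats (red points), with the mean and SD of each group in black. Every FL point lies above every CL point in 7 genes, while the points of Anxa3 and Anxa8 overlap, and FL2 is the lowest FL rat in 7 of the 9 genes.

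Anxa2, which pairs with S100a10 in a complex that holds plasminogen and its activator at the cell surface, showed the largest change of the 9 annexins. Anxa2 (ENSRNOG00000010362, chromosome 8) read 4.48, 4.99 and 4.42 FPKM for CL5, CL6 and CL7, against 8.64, 22.42 and 18.37 FPKM for FL2, FL5 and FL12. The CL rats lay close together, all FL rats lay above them, and FL2 was much nearer to the CL rats than FL5 and FL12 were. The group means were 4.63 ± 0.313 and 16.5 ± 7.08 FPKM (SD, n = 3 rats each), a log2 fold change of 1.70 with a standard error of 0.31 (adjusted p = 0.0115). That is 1.41 above the median of all genes, and 96.2% of the genes tested had a smaller log2 fold change. Anxa2 stayed higher under each of the 15 alternatives run for single genes, with adjusted p-values from 0.000844 (without FL2) to 0.0485 (without CL7).

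S100a10 itself, the partner of Anxa2, read 3.30, 4.26 and 2.79 FPKM in the CL rats against 11.70, 14.07 and 16.04 FPKM for FL2, FL5 and FL12. Its FL values were closer to each other than those of Anxa2, and FL2 was again the lowest. The log2 fold change of S100a10 was 1.99 with a standard error of 0.19 (adjusted p = 0.00165). Per length, the level of S100a10 was under that of Anxa2 in each CL rat and in FL5 and FL12, and above it in FL2.

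The genes of plasminogen activation, a list of 8 as counted here with S100a10 among them, held 4 genes that were higher by limma and 0 that were lower, beside 9.29% and 0.935% of all genes, with a median log2 fold change of 1.06. At an unadjusted p under 0.05 these counts were 5 and 0, where 31.5% of all genes were higher and 4.04% lower. The 4 became 2 with a pseudocount of 1, 2 with median scaling and 1 (S100a10) with quantile normalization. Without FL2 it was 5, and it was 2 when any other rat was left out, with S100a10 always among them. Besides S100a10 these were Plat and Plau, the genes of tissue and urokinase plasminogen activator, and Plgrkt, a plasminogen receptor. Plat rose from 0.873 to 3.05 FPKM (means of 3 rats, log2 fold change 1.75, adjusted p = 0.0215), and Plau from 1.49 to 3.31 FPKM (log2 fold change 1.12, adjusted p = 0.0198). Plgrkt rose from 0.783 to 1.66 FPKM (adjusted p = 0.0136). The most abundant genes of the list come from hepatocytes and did not pass the test. Plg, which encodes plasminogen, read 1040, 1103 and 1032 FPKM in the CL rats against 1074, 944 and 865 FPKM for FL2, FL5 and FL12, and the groups overlapped. Serpinf2, the gene of the plasmin inhibitor, read 205 to 230 FPKM in the CL rats and 215 to 282 FPKM in the FL rats.

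Anxa1 encodes a protein that is induced by glucocorticoids, restrains cytosolic phospholipase A2 and signals to leukocytes through formyl peptide receptors. Anxa1 (ENSRNOG00000017469, chromosome 1) read 2.89, 2.89 and 3.41 FPKM for CL5, CL6 and CL7, against 4.69, 7.59 and 8.70 FPKM for FL2, FL5 and FL12. The FL rats were all above the CL rats, FL12 was the highest and FL2 the lowest of them. From 3.06 ± 0.300 to 6.99 ± 2.07 FPKM (SD, n = 3), the log2 fold change was 1.12 with a standard error of 0.23 (adjusted p = 0.0153). The call ended with a pseudocount of 1 (log2 fold change 0.94), with median scaling (0.90) and with quantile normalization (0.81, adjusted p = 0.0564). It also ended without CL5 (adjusted p = 0.0524), CL6 (0.0513) or FL5 (0.0607), and without FL12 (log2 fold change 0.94). Over all alternatives the adjusted p ranged from 0.00316, without FL2 (log2 fold change 1.38), to 0.0607.

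Fpr1 and Fpr2, the receptors through which Anxa1 acts on leukocytes, were at or near 0 in all rats. Fpr1 was listed at 0 in the 3 CL rats and in FL5, and at 0.05 and 0.03 FPKM in FL2 and FL12. Fpr2 read at most 0.03 FPKM in any rat, and neither gene passed the filter on low values, nor was either called without it. Pla2g4a, the gene of the cytosolic phospholipase A2, read 1.25, 1.63 and 1.02 FPKM in the CL rats against 3.03, 3.69 and 3.82 FPKM in the FL rats. These FL values lay close together and above all CL values, a log2 fold change of 1.38 with a standard error of 0.20 (adjusted p = 0.00592). It fell under the 2-fold limit with a pseudocount of 1 (0.98) and with quantile normalization (0.96).

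Other genes that respond to glucocorticoids were counted as a list. The list of 10 genes had 13 rows, since Tsc22d3, Mt1 and Nr3c1 each had a pair of rows, and 1 row was higher and 1 lower, beside 9.29% and 0.935% of all genes, with a median log2 fold change of 0.47. At an unadjusted p under 0.05 the counts were 4 and 1, beside 31.5% and 4.04%. The row that was higher was Mt1 on chromosome 17 (ENSRNOG00000038047), a metallothionein, with 56.51, 59.98 and 129.46 FPKM in the CL rats and 901.54, 470.39 and 221.62 FPKM for FL2, FL5 and FL12 (log2 fold change 2.58 with a standard error of 0.51, adjusted p = 0.0144). Here FL2 was the highest rat and FL12 the lowest of its group. Metallothionein genes have near-identical copies, and only reads that mapped uniquely were counted. Reads shared between copies could thus be lost, so this row is uncertain. Without FL2 its log2 fold change was 2.09 (adjusted p = 0.0206), and it did not pass without CL5 (0.0526), CL6 (0.0511) or FL5 (0.0531). The other Mt1 row, on chromosome 19 (ENSRNOG00000025764), read 4.86, 7.70 and 15.02 FPKM in the CL rats. In FL2, FL5 and FL12 it read 25.76, 30.10 and 6.58 FPKM. There the groups overlapped, and that row did not pass (limma, adjusted p = 0.244), though it was called without FL12. Zbtb16, a transcription factor, was lower at 5.29, 7.06 and 9.14 FPKM in the FL rats against 15.70 to 16.43 FPKM in the CL rats (log2 fold change -1.19 with a standard error of 0.19, adjusted p = 0.00702), and fell under the 2-fold limit without FL2 (-0.99). Over the list, 3 rows were higher and 0 lower by limma without FL2, and 2 higher and 2 lower without FL12. Fkbp5, a chaperone of the receptor, read 2.21 to 2.50 FPKM in the CL rats and 3.64 to 5.30 FPKM in the FL rats, under a 2-fold change (log2 fold change 0.81, adjusted p = 0.0188). Tat, a liver enzyme, read 59.1 to 91.0 FPKM in the CL rats and 82.1 to 188 FPKM in the FL rats and did not pass (adjusted p = 0.098). For the glucocorticoid receptor Nr3c1, the row with the higher level read 29.3 to 30.7 FPKM in the CL rats and 28.7 to 35.4 FPKM in the FL rats.

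Anxa5, whose protein binds phosphatidylserine on dying cells so tightly that it serves as their stain, was the annexin with the highest mean level among those called. Anxa5 (ENSRNOG00000014453, chromosome 2) read 8.26, 8.26 and 7.61 FPKM for CL5, CL6 and CL7, against 11.10, 23.77 and 18.36 FPKM for FL2, FL5 and FL12. No FL rat overlapped with the CL rats, and the distance of FL2 from them was small beside that of FL5. The group means were 8.04 ± 0.375 and 17.7 ± 6.36 FPKM (SD, n = 3), which is a log2 fold change of 1.07 with a standard error of 0.25 (adjusted p = 0.0249). The call ended with a pseudocount of 1 (log2 fold change 0.99), median scaling (0.84), quantile normalization (0.86) and limma without trend (adjusted p = 0.0551). It also ended without CL5 (adjusted p = 0.0676), CL6 (0.0658), CL7 (0.0884), FL5 (0.0659) or FL12 (0.0745). The adjusted p over all alternatives ran from 0.00303, without FL2 (log2 fold change 1.37), to 0.0884.

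Anxa4, an annexin of epithelia that gathers beneath the membrane of secretory cells, followed Anxa5 closely over the 6 rats. Anxa4 (ENSRNOG00000018159, chromosome 4) read 6.60, 6.62 and 5.93 FPKM for CL5, CL6 and CL7, against 8.50, 15.92 and 13.36 FPKM for FL2, FL5 and FL12. The order of the FL rats was that of Anxa5, and the groups did not overlap. From 6.38 ± 0.393 to 12.6 ± 3.77 FPKM, the log2 fold change was 0.92 with a standard error of 0.22 (adjusted p = 0.0257), under the limit of a 2-fold change. Without FL2 it was 1.18 (adjusted p = 0.00351), which passed the limit. The adjusted p was above 0.05 with median scaling (0.0557), quantile normalization (0.0792) and limma without trend (0.0555). It was also above 0.05 without each of the other 5 rats, at 0.0655 (CL6) to 0.0931 (CL7).

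Of the 16 genes by which phosphatidylserine is exposed, hidden or recognised, 15 passed the filter, and by limma 1 was higher and 0 were lower, beside 9.29% and 0.935% of all genes (8 and 2 at an unadjusted p under 0.05, beside 31.5% and 4.04%), with a median log2 fold change of 0.69. The gene called was Mfge8, which encodes a bridge between dying cells and phagocytes. Mfge8 read 15.09, 13.52 and 12.38 FPKM in the CL rats against 24.92, 32.76 and 32.49 FPKM for FL2, FL5 and FL12, without overlap (log2 fold change 1.13 with a standard error of 0.14, adjusted p = 0.00434). It was under the 2-fold limit with median scaling (0.90) and quantile normalization (0.99), and the list held 2 higher genes without CL5, 2 without FL12 and 3 without FL2. Mertk, a receptor of phagocytes for coated dying cells, had the next smallest adjusted p (0.00634), with 3.50 to 4.36 FPKM in the CL rats and 6.71 to 7.40 FPKM in the FL rats, under a 2-fold change. Tmem30a, the chaperone of the flippases that keep phosphatidylserine inside, and Pros1, the gene of protein S, had the highest means over the 6 rats, though not in the FL group. Tmem30a read 53.1 to 63.0 FPKM in the CL rats and 42.1 to 46.8 FPKM in the FL rats (log2 fold change -0.40, adjusted p = 0.0499), and Pros1 50.4 to 57.3 FPKM and 37.2 to 42.7 FPKM (log2 fold change -0.39, adjusted p = 0.0502). All FL rats were below all CL rats in both genes, with differences under 2-fold. Havcr1 read at most 0.05 FPKM and did not pass the filter.

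Anxa7, also called synexin, promotes the fusion of membranes in secretion and binds sorcin, the product of Sri. Anxa7 (ENSRNOG00000007136, chromosome 15) read 6.89, 5.64 and 2.90 FPKM for CL5, CL6 and CL7, against 8.38, 14.65 and 14.63 FPKM for FL2, FL5 and FL12. The CL rats spread widely, as the highest of them was 2.38 times the lowest, FL5 and FL12 were nearly equal, and FL2 lay little above CL5. The means were 5.14 ± 2.04 and 12.6 ± 3.61 FPKM (SD, n = 3), which is a log2 fold change of 1.31 with a standard error of 0.34 (adjusted p = 0.0341). The call ended with no filter on low values (adjusted p = 0.0557), median scaling (0.063), quantile normalization (0.0781) and limma without trend (0.068). It also ended without CL6 (0.0672), CL7 (0.0815, log2 fold change 0.95), FL5 (0.112) or FL12 (0.101). Its adjusted p lay between 0.0209 (without FL2) and 0.112 over the alternatives. RefSeq lists 4 pseudogenes of Anxa7 and 1 of Anxa2 in the rat, which could take reads from the genes they copy, so the levels of both are uncertain to that extent, and this was not tested.

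Sri had the highest mean over the 6 rats among the genes listed as partners and receptors of annexins, though Pdcd6 was above it in each CL rat. Its level was 7.12, 8.88 and 6.11 FPKM in the CL rats against 18.82, 21.52 and 25.22 FPKM for FL2, FL5 and FL12. The FL rats lay well above the CL rats (log2 fold change 1.56 with a standard error of 0.17, adjusted p = 0.00267). Of the 12 partners and receptors 10 passed the filter, and by limma 8 were higher and 0 lower, beside 9.29% and 0.935% of all genes, with a median log2 fold change of 1.79. At an unadjusted p under 0.05 they were 8 and 0 as well, beside 31.5% and 4.04%. The 8 became 6 with a pseudocount of 1, with quantile normalization or without CL7, and 7 without FL5 or FL12. They included the S100 genes S100a11, a partner of Anxa1, and S100a6, a partner of Anxa11 and others. S100a11 read 2.17, 3.47 and 5.39 FPKM in the CL rats against 14.09, 22.16 and 18.20 FPKM in the FL rats (log2 fold change 2.34 with a standard error of 0.31, adjusted p = 0.00471). S100a6 read 2.69 to 3.13 FPKM and 7.53 to 15.22 FPKM (adjusted p = 0.00437), and S100a4 0.31 to 1.37 FPKM and 2.44 to 4.42 FPKM (log2 fold change 2.19, adjusted p = 0.0162). S100a4 did not pass without CL7 (0.0558), FL5 (0.0631) or FL12 (0.0559). Ahnak, a giant scaffold bound by Anxa2 and S100a10, read 2.45 to 2.74 FPKM and 5.70 to 13.19 FPKM (log2 fold change 1.78, adjusted p = 0.00686). Tlr2, a receptor of innate immunity, read 0.22 to 0.34 FPKM in the CL rats and 0.82 to 2.12 FPKM in the FL rats (log2 fold change 1.80, adjusted p = 0.0146), and was not called with a pseudocount of 1, with quantile normalization or without CL7 (0.0596). The genes of this list that did not pass were Pdcd6 (adjusted p = 0.575), a calcium sensor that binds Anxa7 and Anxa11, and Dysf (adjusted p = 0.17), which encodes dysferlin.

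Anxa6, which organises cholesterol-rich membranes and late endosomes, had the highest level of the family in every rat. Anxa6 (ENSRNOG00000010668, chromosome 10) read 44.01, 45.70 and 43.50 FPKM for CL5, CL6 and CL7, against 63.24, 63.52 and 57.27 FPKM for FL2, FL5 and FL12. Here FL2 was level with FL5, FL12 was the lowest FL rat, and the groups did not overlap. The means of 44.4 ± 1.15 and 61.3 ± 3.53 FPKM (SD, n = 3) gave a log2 fold change of 0.46 with a standard error of 0.11 (adjusted p = 0.0235), which is 0.18 above the median of all genes, and without FL2 it was 0.44 (adjusted p = 0.0304). With median scaling it was 0.24 and did not pass (adjusted p = 0.199), nor did it with limma without trend (0.0543). It also did not pass without CL5 (0.0685), CL6 (0.0671), CL7 (0.0882) or FL5 (0.0785).

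Anxa11, which tethers RNA granules to lysosomes, had the next highest mean in both groups. Anxa11 (ENSRNOG00000010984, chromosome 16) read 14.38, 13.74 and 13.83 FPKM for CL5, CL6 and CL7, against 18.15, 21.07 and 22.09 FPKM for FL2, FL5 and FL12. All FL rats were above all CL rats, with little spread in either group. From 14.0 ± 0.346 to 20.4 ± 2.04 FPKM, the log2 fold change was 0.54 with a standard error of 0.11 (adjusted p = 0.0177), or 0.25 above the median of all genes, and without FL2 it was 0.62 (adjusted p = 0.00979). It did not pass with median scaling (adjusted p = 0.0776) or quantile normalization (0.0632). Nor did it pass without CL6 (0.0609), CL7 (0.0674), FL5 (0.0656) or FL12 (0.0512).

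Anxa3 and Anxa8 did not pass the test. Anxa3 (ENSRNOG00000002045, chromosome 14), another inhibitor of phospholipase A2, read 3.95, 3.05 and 2.94 FPKM for CL5, CL6 and CL7, against 7.07, 5.21 and 2.91 FPKM for FL2, FL5 and FL12. The groups overlapped because FL12 was below all CL rats, and the order of the FL rats was the reverse of that in Anxa1. The log2 fold change was 0.52 with a standard error of 0.30 (adjusted p = 0.249), and it was 0.87 without FL12 (adjusted p = 0.0424, and over the alternatives between 0.0424 and 0.792) and 0.24 without FL2. Anxa8 (ENSRNOG00000060949, chromosome 16), an annexin of some epithelia, read 0.07, 0.12 and 0.37 FPKM in the CL rats against 0.03, 0.55 and 0.12 FPKM for FL2, FL5 and FL12. The groups overlapped fully, and the log2 fold change of 0.03 with a standard error of 0.67 (adjusted p = 0.981) turned negative with median scaling (-0.11) and quantile normalization (-0.53).

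The table held 3 further annexin genes, which were not among the 9. Anxa13, known from the gut, read 0.58, 0.24 and 0.36 FPKM in the CL rats against 0.74, 0.49 and 1.40 FPKM for FL2, FL5 and FL12. FL5 fell within the CL range, and Anxa13 did not pass (log2 fold change 0.94 with a standard error of 0.41, adjusted p = 0.148). Anxa9 and Anxa10 were at most 0.06 and 0.05 FPKM in any rat and did not pass the filter.

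**Figure D2:**
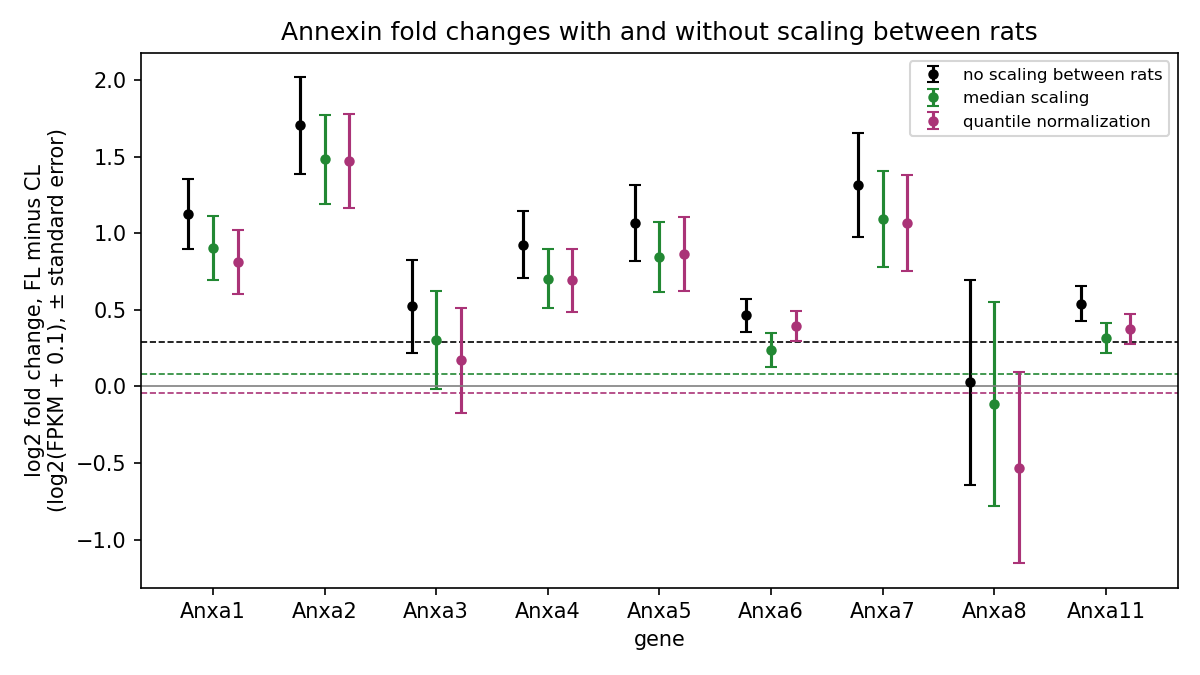
Log2 fold change of the FL from the CL group for the 9 annexin genes (vertical axis, log2(FPKM + 0.1), bars are standard errors from limma, n = 3 rats each) without scaling between rats, with median scaling and with quantile normalization. Dashed lines mark the median of all genes tested under each of these (0.29, 0.08 and -0.04), and Anxa2 has the highest value under all 3, while Anxa8 turns negative under both scalings.

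By mean FPKM, the order in the CL group was Anxa6, Anxa11, Anxa5, Anxa4, Anxa7, Anxa2, Anxa3, Anxa1 and Anxa8, in which the rats of Anxa7 overlapped with those of Anxa4, Anxa2, Anxa3 and Anxa1, and Anxa3 with Anxa1. In the FL group the order was Anxa6, Anxa11, Anxa5, Anxa2, Anxa4, Anxa7, Anxa1, Anxa3 and Anxa8, in which each neighbouring pair from Anxa11 to Anxa3 overlapped. The makeup of the family differed as well. The 9 genes summed to 91.53, 91.01 and 84.91 FPKM for CL5, CL6 and CL7, and to 129.8, 174.7 and 155.81 FPKM for FL2, FL5 and FL12. Anxa6 made up 48.1%, 50.2% and 51.2% of that sum in the CL rats, 48.7% in FL2, and 36.4% and 36.8% in FL5 and FL12. FL2 thus lay within the range of the CL rats for this share, while FL5 and FL12 lay below it. Anxa2 made up 4.89%, 5.48% and 5.21% of the sum in the CL rats and 6.66%, 12.8% and 11.8% in FL2, FL5 and FL12. The ratio of the level of Anxa2 to that of Anxa6, which no scaling factor of a rat can alter, was 0.102, 0.109 and 0.102 in the CL rats and 0.137, 0.353 and 0.321 in FL2, FL5 and FL12. All FL rats were above all CL rats in this ratio. These shares are descriptions and were not tested.

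The levels of the annexins are known to differ between the cell types of the liver, and marker genes of several of these types moved in the same rats, but their part in the annexin values was not tested. Of the 9 stellate cell and myofibroblast markers 8 were tested. By limma 4 were higher and 0 lower, beside 9.29% and 0.935% of all genes. At an unadjusted p under 0.05 these counts were 6 and 0, beside 31.5% and 4.04%. Col3a1 was the most abundant. The summed level of the markers per rat followed the order of Anxa2, with FL5 above FL12 above FL2. The sums of the hepatocyte, cholangiocyte, mesothelial and cycling cell markers had this order as well. Those of the macrophage, endothelial, lymphocyte and neutrophil markers did not. Without FL2, 6 of the 8 stellate cell and myofibroblast markers were higher. Of the 9 macrophage markers 6 were higher by limma, beside 9.29% of all genes. The 6 became 5 with median scaling, with quantile normalization or without FL5. At an unadjusted p under 0.05, 8 were higher, beside 31.5% of all genes. Gpnmb was the most abundant in the FL group, though not in the CL group. The list summed to 100.2, 97.4 and 97.9 FPKM in the CL rats and to 308, 370 and 251 FPKM for FL2, FL5 and FL12. In this sum FL12 was thus the lowest FL rat. By single marker FL12 was the lowest for most of them, while FL2 was the lowest for others, Gpnmb among them. Of the 7 cholangiocyte markers 1 was higher by limma, beside 9.29% of all genes. At an unadjusted p under 0.05, 3 were higher, beside 31.5%. The gene called was Spp1, which is made by macrophages too. It is also the most abundant of the list in each FL rat, though in no CL rat. It was not called without CL7, and without FL2 the list held 2 higher genes. The list summed to 10.3 to 16.0 FPKM in the CL rats and to 19.1, 75.0 and 48.3 FPKM for FL2, FL5 and FL12, while the duct keratins Krt7 and Krt19 stayed at or under 1.06 FPKM in all rats.

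Of the 7 hepatocyte markers 0 were called by limma in either direction, beside 9.29% of all genes higher and 0.935% lower. At an unadjusted p under 0.05, 1 was higher and 0 were lower, beside 31.5% and 4.04% of all genes. The median log2 fold change was -0.21. The summed level of the markers, mostly Alb, was 40571 to 42906 FPKM in the CL rats and 31031.5 to 34092 FPKM in the FL rats. All FL rats were below all CL rats in 5 of the 7, as in 4.78% of all genes. They were above all CL rats in 1, as in 35.7%. The trend in limma gave Alb a standard error of 0.98, while the rats alone give 0.03, so this test says little about a gene as abundant as Alb. Without the trend 0 were called in either direction, and 1 was higher and 2 were lower at an unadjusted p under 0.05. Of the 5 endothelial markers with a row 1, Vwf, was higher by limma, beside 9.29% of all genes. At an unadjusted p under 0.05, 3 were higher, beside 31.5%. In 3 all FL rats were above all CL rats, as in 35.7% of all genes. The endothelial sums were 55.8 to 63.3 FPKM in the CL rats and 69.0 to 78.5 FPKM in the FL rats. Kdr was the most abundant in the CL group, though not in the FL group. Vwf was not called with a pseudocount of 1, median scaling, quantile normalization or limma without trend, nor when any rat but FL2 was left out. Mesothelial markers held 0 calls by limma among 6. At an unadjusted p under 0.05, 3 were higher, beside 31.5% of all genes. The sum of these markers was 63.1 to 81.3 FPKM in the CL rats and 98.8 to 137 FPKM in the FL rats. Most of it was Krt18 and Krt8, keratins that hepatocytes also express. Without 1 rat, 1 mesothelial marker was higher (CL5), 2 were higher (FL2) or 1 was lower (FL12). Neutrophil markers were near the floor of the table, with S100a8 the most abundant and Elane and Mpo listed at 0 in the CL rats. They summed to 0.25 to 1.22 FPKM in the CL rats and 2.11 to 4.83 FPKM in the FL rats. Of 4 tested 3 were higher by limma, beside 9.29% of all genes, and 4 at an unadjusted p under 0.05, beside 31.5%. These 3 calls became 1 when any rat was left out, 1 with median scaling and 0 with quantile normalization (limma). Lymphocyte markers held 0 calls by limma among 5 tested, and 1 was higher at an unadjusted p under 0.05, beside 31.5% of all genes. Their sums were 1.62 to 2.43 FPKM in the CL rats and 1.94 to 5.61 FPKM in the FL rats. Cd8a was the most abundant over the 6 rats through its level of 2.57 FPKM in FL5, though not in the CL group. Without FL12, 1 lymphocyte marker was higher. Of 5 cycling cell markers 2, Birc5 and Mki67, were higher by limma, beside 9.29% of all genes. At an unadjusted p under 0.05, 4 were higher, beside 31.5%. The list summed to 2.39, 4.56 and 2.90 FPKM in the CL rats and to 4.04, 18.4 and 15.7 FPKM for FL2, FL5 and FL12. In this list, too, FL2 was the lowest FL rat and fell within the CL range, and by limma 5 were higher without FL2, 1 without CL6 and 0 without CL5, CL7, FL5 or FL12. Of the 2 cycling cell calls 1 was left with median scaling and 0 with quantile normalization.

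Genes of calcium-dependent membrane repair, a process in which annexins seal the torn edge, were counted as well. Of the 13 genes with a row 12 were tested. By limma 2 were higher and 0 lower, beside 9.29% and 0.935% of all genes. At an unadjusted p under 0.05 the counts were 4 and 0, beside 31.5% and 4.04%. The median log2 fold change was 0.41. Myof, the gene of myoferlin, read 0.61, 0.56 and 0.46 FPKM in the CL rats against 1.71, 3.57 and 2.95 FPKM for FL2, FL5 and FL12, without overlap (log2 fold change 2.09 with a standard error of 0.29, adjusted p = 0.0049). Capn1, a calpain that cuts proteins at the wound, read 2.07 to 3.38 FPKM in the CL rats and 5.28 to 5.93 FPKM in the FL rats, under a 2-fold change (log2 fold change 0.97, adjusted p = 0.0144). Ehd2, which shapes caveolae, read 1.46 to 1.85 FPKM and 2.54 to 4.68 FPKM (log2 fold change 1.12, adjusted p = 0.0198). Myof was called under each alternative, whereas Ehd2 was not with a pseudocount of 1, median scaling or quantile normalization, nor without CL5, CL7, FL5 or FL12. Without CL6 the list held 3 higher genes. The most abundant genes of the list were Smpd1, an acid sphingomyelinase, at 42.5 to 54.8 FPKM in the CL rats and 45.9 to 60.4 FPKM in the FL rats, and Pdcd6ip, of the membrane scission machinery, at 26.9 to 27.7 FPKM and 27.0 to 30.1 FPKM. Both overlapped between the groups.

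The members moved together to different degrees over the 6 rats. Pearson's r of log2(FPKM + 0.1), given as a description over 6 rats that share the difference between the groups, was 0.999 for Anxa4 with Anxa5 and 0.994 for Anxa2 with Anxa4. Anxa3 was the least like the other members apart from Anxa8, with r from 0.18 (Anxa1) to 0.69 (Anxa6). Among the 10535 genes averaging 1 FPKM or more, those most like Anxa2 were Eps15l1 (r = 0.9982), Prr14l and Prrc2b (0.9975 each), and 788 genes had r above 0.95. For Anxa1 they were Ppfibp1 (0.9966), Scmh1 (0.9962) and Sec24b (0.9959), for Anxa5 they were Anxa4 (0.9987), Kpna6 (0.998) and Xrcc5 (0.9975), and for Anxa7 they were Mbtps1 (0.9977), AC126148.2 and Ccs (0.9956 each). The genes with r above 0.95 numbered 627 for Anxa1, 522 for Anxa5 and 280 for Anxa7.

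The promoters shown are those of the 4 annexins that were called higher, as the 250 bases before the start of each gene in RefSeq (build GRCr8), read 5′ to 3′ on the strand of the gene. RefSeq promoters were matched by symbol for 8 of the 9 members, all but Anxa6. Capitals mark matches on either strand to any of the motifs searched. The GC box, GGGCGG, is held by 32.4% of the 27457 rat promoters of the same length. The motif of AP-1 factors, TGANTCA, where N is any base, is held by 6.36% of them. The TATA box was searched as TATAAA, which 13.1% hold. The last motif was CCAAT, which 34.3% hold. Anxa1 lies at chr1:227303733-227303982 on the minus strand, Anxa2 at chr8:78986002-78986251 on the plus strand, Anxa5 at chr2:121272697-121272946 on the minus strand and Anxa7 at chr15:3870790-3871039 on the plus strand.
Anxa1: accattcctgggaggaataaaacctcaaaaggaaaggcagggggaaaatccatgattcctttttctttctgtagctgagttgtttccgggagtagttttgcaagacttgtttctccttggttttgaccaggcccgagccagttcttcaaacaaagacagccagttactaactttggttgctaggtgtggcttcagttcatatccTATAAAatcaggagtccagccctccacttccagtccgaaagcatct
Anxa2: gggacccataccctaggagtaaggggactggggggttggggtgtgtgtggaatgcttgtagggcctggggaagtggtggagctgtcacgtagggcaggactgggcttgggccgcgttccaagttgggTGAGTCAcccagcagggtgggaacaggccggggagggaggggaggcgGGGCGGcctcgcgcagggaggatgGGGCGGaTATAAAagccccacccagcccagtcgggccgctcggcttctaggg
Anxa5: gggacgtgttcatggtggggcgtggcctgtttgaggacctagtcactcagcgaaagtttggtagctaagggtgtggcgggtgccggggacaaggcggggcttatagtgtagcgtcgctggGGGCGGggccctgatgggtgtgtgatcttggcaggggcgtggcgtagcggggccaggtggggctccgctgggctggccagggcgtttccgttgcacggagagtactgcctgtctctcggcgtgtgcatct
Anxa7: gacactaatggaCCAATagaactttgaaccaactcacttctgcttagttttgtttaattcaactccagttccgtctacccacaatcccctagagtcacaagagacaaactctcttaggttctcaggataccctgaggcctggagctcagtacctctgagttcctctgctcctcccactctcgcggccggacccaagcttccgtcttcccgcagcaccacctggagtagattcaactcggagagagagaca

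The 4 promoters shared none of the motifs as a set. Anxa2 held 2 matches to GGGCGG, 76 and 52 bases before the start, 1 to TGANTCA at 123 bases and 1 to TATAAA at 45 bases. Anxa1 held TATAAA at 46 bases, Anxa5 GGGCGG at 130 bases and Anxa7 CCAAT at 238 bases. Of the members that were not called, Anxa4 held GGGCGG and CCAAT, Anxa3 held 3 matches to GGGCGG, Anxa11 held 4, and Anxa8 held none of the motifs. The GC content of the windows was 45.2% for Anxa1, 67.2% for Anxa2, 65.2% for Anxa5 and 50.8% for Anxa7, beside a median of 52% over all promoters. A match says only that these letters are in the window.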

How the data were processed

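Liver RNA of 3 FL and 3 CL rats was sequenced with 1 library per rat, and rats were grouped by their labels. The FPKM that the authors deposited, given to 2 decimals, came from reads trimmed by FASTX-Toolkit, mapped by TopHat2 and counted on genes where they mapped uniquely. GRCH38 is named as the genome in the methods, but the identifiers of the genes are those of the rat in Ensembl. The use of strand in counting genes is not given in the sources used here, though the study states that antisense reads of lncRNAs were discarded. In the same table, 2 further columns of values matched no sample and were not used. Read totals were not used here, so depth is given only relative to CL5. The most frequent low value of the U6 genes put the relative depth at 1, 0.656 and 0.84 in CL5, CL6 and CL7 and at 0.677, 0.75 and 0.677 in FL2, FL5 and FL12. The SD given are the spread between the 3 rats of a group, while the standard errors are limma's, which also draw on the spread of other genes. Libraries were checked for duplicates, and any pair of rats had the same value above 0 in 0.866% to 2.54% of genes.

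The study tested read counts with edgeR, which FPKM do not allow, so its limits (adjusted p under 0.05, at least 2-fold) were kept and limma (lmFit and eBayes with trend) was run on log2(FPKM + 0.1) for all 14864 genes averaging 0.1 FPKM or more. All adjusted p-values are limma's after Benjamini-Hochberg adjustment over the genes of each fit, and standard errors are limma's. Groups are given as means with SD. The procedure was tested on simulated data.

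The members and lists were chosen with earlier results of these data known. Named genes were the 9 members, all other annexin rows, and from each pathway list the 2 genes with the highest mean FPKM, the 2 with the smallest adjusted p and every gene called. For members called, the 3 genes with the highest Pearson r were named. Pdcd6, Dysf, Fpr1, Fpr2, Havcr1, Nr3c1, Fkbp5, the Mt1 row on chromosome 19 and the markers Vwf, Krt7, Krt19, Krt8, Elane, Mpo, Birc5 and Mki67 fall outside that rule and were chosen after their values were seen. Of marker lists (hepatocyte, stellate cell or myofibroblast, macrophage, cholangiocyte, endothelial, lymphocyte, neutrophil, mesothelial and cycling cell), the sum in each rat, the calls and the most abundant gene were read. In the plasminogen list, 1 gene is not reported here, and the list's counts and median leave it out. Pecam1, Capns1 and Chmp4b had no row under these symbols.

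Alternatives changed the pseudocount to 1 or 0.01, dropped the filter or raised it to 1 FPKM, scaled rats by the median ratio or by quantiles, ran limma with no trend or a robust prior, dropped the fold limit, or left out each rat in turn. The filter was first applied after median scaling. It was moved before the scaling after its results had been seen and with earlier results of these data known, so that the same genes are tested, and the first order is kept as an added alternative. Sequences came from RefSeq (GRCr8). Software was limma 3.58.1 in R 4.3.3, and pandas 2.3.3, numpy 2.4.6 and matplotlib 3.10.9 in Python 3.11.15.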

Additional observations from a re-analysis of the deposited data

How the results depend on the processing

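Of the 4 annexins called higher, Anxa2 kept its call under all 15 alternatives run for single genes, while Anxa1, Anxa5 and Anxa7 lost theirs under 8, 10 and 9 of them, always with the same direction. The count of 4 was 2 with a pseudocount of 1, 2 with limma without trend, 1 with median scaling, 1 with quantile normalization, 7 without a limit on the fold change, and between 1 and 5 when each rat was left out in turn. The 7 with an adjusted p under 0.05 became 2 with median scaling, 2 with quantile normalization, 3 with limma without trend and between 1 and 7 when each rat was left out. The count of annexins called lower was 0 under every alternative, leaving out each rat included. The log2 fold change of Anxa8 turned from 0.03 to -0.15 with a pseudocount of 0.01, to -0.11 with median scaling and to -0.53 with quantile normalization, and ranged from -0.62 to 0.54 when each rat was left out. The cause was not tested.

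Over all genes, 1381 higher and 139 lower calls became 462 and 72 with a pseudocount of 1, 854 and 94 with a mean of at least 1 FPKM (where fewer genes are tested), 826 and 181 with median scaling, 453 and 231 with quantile normalization, and 2518 and 288 without a limit on the fold change. Leaving out each rat gave 740 to 1831 higher and 81 to 160 lower calls. The order of the filter and median scaling was changed after seeing the data. In the first order, with the filter after the scaling, 1 annexin was higher (Anxa2), the log2 fold change of Anxa8 was again -0.11, and 824 genes were higher and 180 lower. With quantile normalization the CL mean of the share of the annexin sum moved from 7.16% to 7.40% for Anxa4 and from 9.02% to 9.26% for Anxa5, each by more than the SD of the CL rats. It moved further but within that SD for Anxa6, from 49.8% to 48.3%. No paired analysis was possible, as the study divided its rats at random between the groups. CL5 and FL5 are thus different animals, and their shared number marks no pair. The low levels of Anxa8, Anxa9, Anxa10 and the formyl peptide receptors, at or under 0.55 FPKM in each rat, limit what can be said of them. Of the pathway genes, the 4 higher calls of the plasminogen list were 2 with median scaling and 1 with quantile normalization, and the 8 of the partners were 8 and 6.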
